A study of Homo sapiens with 4 samples.

Results

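The genes of NEDD8 conjugation, the cullins and the COP9 signalosome were followed as 39 named rows among the 43622 genes of an RNA-seq table. They were taken by name as a list drawn up with earlier results of these data known, and all 39 had a mean level high enough to be tested. They comprise NEDD8 with its activating and conjugating enzymes (5 genes), the DCUN1D co-E3 proteins (5), the RING subunits (2), the cullins (8), the cullin exchange factors with the inhibitor GLMN (3), the COP9 signalosome (9), the deneddylase SENP8 (1), the adaptors (4) and the partner ubiquitin ligases (2).

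PC3 is a human cell line from a prostatic adenocarcinoma. Parental PC3 cells (genotype wt) and PC3-shp14ARF cells, which carry a stable shRNA against p14ARF introduced by retrovirus and selected with hygromycin, each received DMSO or 1 µM MLN4924 for 3 days (72 h). This gave the 4 conditions Ctrl (PC3, DMSO), MLN (PC3, MLN4924), shARF (PC3-shp14ARF, DMSO) and Both (PC3-shp14ARF, MLN4924), with 3 libraries each. No control shRNA is named for Ctrl and MLN, so the depletion of p14ARF and the making of the line cannot be told apart, and the labels do not say that the 3 libraries of a condition came from separate cultures, so that p-values measure only the spread between these libraries. Levels are TPM values, transcript abundances scaled per gene length and per library, and RNA levels give no protein levels or NEDD8 conjugation. In bulk RNA, fewer cells with a transcript and less of it per cell cannot be told apart.

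NEDD8 is a small ubiquitin-like protein that is activated by the NAE1-UBA3 heterodimer, passed to UBE2M or UBE2F, and joined to a cullin with the help of a RING subunit and a DCUN1D protein. A cullin carrying NEDD8 is the active scaffold of a cullin-RING ubiquitin ligase, which marks cell cycle regulators, NRF2 and many other proteins for the proteasome. The COP9 signalosome removes NEDD8, after which CAND1 can exchange the substrate receptors. MLN4924 (pevonedistat) blocks the NAE1-UBA3 enzyme, so these genes encode the target of the drug and the machinery downstream of it.

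CDKN2A, the gene of p14ARF, was measured at 190, 183 and 177 TPM in the Ctrl libraries and at 100, 133 and 119 in MLN. It was at 58.2, 58.7 and 60.9 TPM in shARF and at 47.2, 41.2 and 54.0 in Both. Every library of the shRNA line was below every library of the parental line. These CDKN2A values are for the whole gene and do not give the p14ARF transcript by itself. The 5 epithelial markers KRT8, KRT18, KRT19, EPCAM and CDH1 were each at 1 TPM or more, as means, in all 4 conditions, with a summed level of 907 to 1004 TPM in Ctrl, 439 to 504 in MLN, 1138 to 1280 in shARF and 433 to 450 in Both. The prostate luminal markers KLK3 and FOLH1 were listed at 0 in all 12 libraries, and KLK2 was at or near 0. The 3 leukocyte markers summed to at most 1.07 TPM, the 3 endothelial markers to between 0.160 (Both) and 12.6 TPM (Ctrl), and the 3 fibroblast markers to between 9.98 (Both) and 63.9 TPM (shARF); the part of these shifts in the results was not tested. Read depth is unknown, since the TPM values keep no totals.

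In vehicle-treated PC3 cells the 39 genes spanned a range from 264 ± 11.6 TPM (SD, n = 3) for UBE2M, the NEDD8-conjugating enzyme that acts with RBX1, to 2.44 ± 0.408 for CAND2, a paralog of the exchange factor CAND1. After UBE2M came COPS6 (225 ± 6.22 TPM), ELOB (217 ± 5.91), DCUN1D5 (155 ± 10.7) and NEDD8 itself (143 ± 8.46). The least abundant were ARIH1, CUL9 and DCUN1D2 at between 9.43 and 9.93 TPM, then SENP8 (2.63 ± 0.153) and CAND2. CUL2, the scaffold of the VHL ligase, was the most abundant cullin at 125 ± 8.04 TPM, above CUL1 at 88.9 ± 1.49, with no overlap of the libraries. CUL9 was the least abundant at 9.64 ± 0.520. DCUN1D5 alone made up 73.2% ± 1.59 of the summed TPM of the 5 DCUN1D genes in Ctrl, and between 78.9% and 79.1% in the other 3 conditions. The coefficient of variation of the 39 genes between the 3 libraries of a condition had a median of 4.07% in shARF, 5.65% in Ctrl, 6.68% in MLN and 7.23% in Both, and reached 22.1% for 1 gene in MLN. Several of the genes share exonic bases with a neighbour, and for NEDD8, DCUN1D3, CUL7, CAND2, GPS1, SENP8, ELOB and DDB1 the neighbour's values are given beside the results. UBE2F, CUL2, CUL4A, COPS5, COPS7B and SKP1 also share between 72 and 688 such bases with a neighbour, and COPS2 and ARIH2 share 6 and 3, and the part of these neighbours was not tested.

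MLN4924 in parental PC3 cells (MLN vs Ctrl) changed 24 of the 39 genes at an adjusted p below 0.05, 12 higher and 12 lower. Over all 19932 genes tested, 61.6% were called in either direction, 32.2% higher and 29.4% lower beside 61.5% of the 39 genes. Of the 14663 genes whose mean reached 1 TPM, as that of every one of the 39 did, 73.7% were called when they were tested alone, with the same counts for the members. None of the 39 passed with a log2 change beyond 1, where 28.0% of all genes did. The median size of the log2 change was 0.32 for the 39 genes and 0.65 for all genes. By role, every called gene among the NEDD8 enzymes and the RING subunits was higher, and every called cullin and exchange factor was lower. These splits by role were not tested against that of all genes. Fold changes here and below are differences on the log2(TPM + 0.1) scale with their standard error (SE).

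Among NEDD8 and its enzymes, 3 of 5 rose in PC3 cells and none fell. UBE2M was at 276, 262 and 254 TPM in Ctrl and at 375, 388 and 449 in MLN. All 3 treated libraries were above all 3 controls, by a log2 change of 0.61 (SE 0.08, adjusted p = 0.00107). NAE1, the regulatory subunit of the activating enzyme, rose from 95.7 ± 5.95 to 126 ± 9.44 TPM (log2 change 0.40, SE 0.07, adjusted p = 0.0043), and NEDD8 from 143 ± 8.46 to 174 ± 15.8 (0.28, SE 0.08, adjusted p = 0.0251). NEDD8 shares 488 exonic bases with the readthrough gene NEDD8-MDP1 on its own strand, at 4.74 TPM in Ctrl and 10.9 in MLN, whose part was not tested. UBA3, the catalytic subunit that MLN4924 blocks, was at 44.3 ± 1.63 TPM in Ctrl and 41.9 ± 2.80 in MLN (log2 change -0.08, 95% interval -0.24 to 0.07). UBE2F, the conjugating enzyme for CUL5, was at 31.4 ± 1.78 and 29.5 ± 0.538 TPM (-0.09, interval -0.22 to 0.05). Both RING subunits rose: RBX1, the partner of most cullins, by a log2 change of 0.48 (SE 0.08, adjusted p = 0.00231), and RNF7, the partner of CUL5, by 0.32 (SE 0.06, adjusted p = 0.00392).

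Of the 5 co-E3 genes, 2 rose, 1 fell and 2 did not pass. DCUN1D5, the most abundant, was at 143, 165 and 158 TPM in Ctrl and 231, 235 and 211 in MLN, without overlap (log2 change 0.54, SE 0.07, adjusted p = 0.00103). DCUN1D1 rose from 20.1 ± 0.854 to 25.7 ± 1.72 TPM (0.35, SE 0.07, adjusted p = 0.00435). DCUN1D3, a member of the family that is anchored at the plasma membrane, went the other way and fell by 0.41 on the log2 scale (SE 0.07, adjusted p = 0.0026). DCUN1D2 and DCUN1D4 were at 9.93 and 11.4 TPM in Ctrl and at 11.4 and 11.6 in MLN.

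None of the 8 cullins rose in PC3 cells and 5 fell. CUL1, the scaffold of the SKP1-F-box ligases, was at 87.5, 88.8 and 90.5 TPM in Ctrl and at 56.2, 59.7 and 65.0 in MLN. No treated library reached the controls (log2 change -0.56, SE 0.06, adjusted p = 0.000431). CUL4A and CUL4B, the paralogous scaffolds of the DDB1 ligases, fell together, by 0.54 (SE 0.05, adjusted p = 0.000244) and 0.45 (SE 0.05, adjusted p = 0.000585) on the log2 scale. CUL9 fell by 0.49 (SE 0.07, adjusted p = 0.00159) and CUL5 by 0.27 (SE 0.05, adjusted p = 0.00389). CUL2 was at 125 ± 8.04 and 126 ± 2.51 TPM (interval of the log2 change -0.13 to 0.15), CUL3 at 21.1 ± 1.33 and 20.4 ± 0.870 (-0.21 to 0.12) and CUL7 at 34.1 ± 4.36 and 31.5 ± 2.01 (-0.36 to 0.14). CAND1, which exchanges the receptors on a bare cullin, fell from 32.5 ± 1.51 to 24.5 ± 0.931 TPM (-0.41, SE 0.06, adjusted p = 0.00116), and GLMN, which binds RBX1 and blocks its recruitment of an E2, from 27.7 ± 2.91 to 20.8 ± 3.27 (-0.42, SE 0.13, adjusted p = 0.0354).

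Of the 9 COP9 signalosome genes 2 rose, 2 fell and 5 did not pass, where 32.2% of all genes were higher and 29.4% lower. COPS8 was at 60.3, 59.5 and 56.9 TPM in Ctrl and at 77.8, 86.3 and 91.3 in MLN, all treated libraries being higher (log2 change 0.53, SE 0.07, adjusted p = 0.000861). COPS5, the catalytic subunit that removes NEDD8, rose by 0.24 (SE 0.07, adjusted p = 0.0299). COPS6, the other subunit with the same protease-like fold, was at 228, 218 and 229 TPM in Ctrl and at 154, 171 and 184 in MLN, without overlap (-0.41, SE 0.07, adjusted p = 0.00346). COPS7A fell from 96.5 ± 4.19 to 69.2 ± 9.2 TPM (-0.49, SE 0.10, adjusted p = 0.00693), while its paralog COPS7B was at 31.2 ± 3.17 and 35.5 ± 2.68 (0.19, interval -0.04 to 0.42). GPS1, COPS2, COPS3 and COPS4 had log2 changes between -0.15 and 0.13. SENP8, which matures NEDD8 and removes it from proteins other than cullins, fell from 2.63 ± 0.153 to 1.70 ± 0.290 TPM (-0.61, SE 0.16, adjusted p = 0.0151). It shares 140 exonic bases with MYO9A on the opposite strand, at 3.56 TPM in Ctrl and 2.75 in MLN, whose part was not tested.

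The 4 adaptors, which link a cullin to its receptors, held the widest span in this comparison. DDB1, the CUL4 adaptor, was at 98.3, 85.6 and 89.2 TPM in Ctrl and at 50.0, 55.2 and 64.2 in MLN. All treated libraries were lower (log2 change -0.69, SE 0.10, adjusted p = 0.00169). TKFC, which shares 493 exonic bases with DDB1 on the opposite strand, was at 26.0 TPM in Ctrl and 11.8 in MLN, and at 23.7 in shARF and 11 in Both; its part was not tested. ELOC, which with ELOB links CUL2 and CUL5 to their receptors, was at 55.0, 69.9 and 60.8 TPM in Ctrl and at 110, 91.8 and 98.4 in MLN, all higher (0.70, SE 0.11, adjusted p = 0.002). ELOB rose by 0.55 (SE 0.06, adjusted p = 0.000318). SKP1, the CUL1 adaptor, was at 62.4 ± 1.71 and 59.9 ± 4.28 TPM (-0.06, interval -0.22 to 0.09). Of the ligases that act on neddylated cullins, ARIH2 rose by 0.21 (SE 0.06, adjusted p = 0.021) and ARIH1 was at 9.43 ± 0.574 and 8.95 ± 0.596 TPM. Without 1 library, 5 of the 24 calls had an adjusted p above 0.05: NEDD8 without Ctrl 1, Ctrl 3, MLN 1 or MLN 5 (adjusted p 0.0574 to 0.0864), GLMN without Ctrl 2, Ctrl 3, MLN 2 or MLN 5 (0.0817 to 0.109), COPS5 without Ctrl 1, Ctrl 2, MLN 1 or MLN 5 (0.0831 to 0.0907), ARIH2 without Ctrl 1, Ctrl 2, MLN 2 or MLN 5 (0.0506 to 0.0635) and SENP8 without MLN 2 (0.0513).

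In PC3-shp14ARF cells (Both vs shARF) MLN4924 changed 22 of the 39 genes, 7 higher and 15 lower. Of all genes 61.0% were called, 28.3% higher and 32.8% lower, beside 56.4% of the 39 genes, and 74.0% of those whose mean reached 1 TPM, tested alone, again with the same counts for the members. A log2 change beyond 1 passed for 26.4% of all genes and for none of the 39. The split depended on scaling, for the members and for all genes. With median-of-ratios scaling 13 members were higher and 10 lower. Of all 19932 genes 6407 were then higher and 5933 lower, against 5636 and 6530 without it. The median of all genes moved from -0.04 to 0.03. The median size of the log2 change was 0.24 for the 39 genes and 0.64 for all genes.

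UBE2M was at 343, 312 and 373 TPM in shARF and at 480, 432 and 480 in Both, without overlap (log2 change 0.44, SE 0.08, adjusted p = 0.00429). UBE2F fell by 0.33 (SE 0.07, adjusted p = 0.00733). NEDD8, NAE1 and UBA3 had log2 changes of 0.09, 0.15 and 0.17 and did not pass. DCUN1D1 rose by 0.43 (SE 0.10, adjusted p = 0.00989) and DCUN1D5 by 0.35 (SE 0.04, adjusted p = 0.000841). CUL1 was at 93.9, 90.9 and 92.1 TPM in shARF and 63.4, 70.2 and 61.7 in Both, all treated libraries being lower (-0.51, SE 0.06, adjusted p = 0.000465). CUL4A fell by 0.58 (SE 0.04, adjusted p = 5.59e-05), CUL4B by 0.44 (SE 0.10, adjusted p = 0.00994) and GLMN by 0.56 (SE 0.08, adjusted p = 0.00151). CAND1 was at 38.4 ± 1.57 and 32.5 ± 3.29 TPM (-0.24, SE 0.08, adjusted p = 0.0381). CUL2, CUL5, CUL7 and CUL9 had log2 changes between -0.16 and 0.10 and did not pass.

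In the signalosome, COPS8 rose from 59.3 ± 3.54 to 90.3 ± 3.73 TPM (log2 change 0.61, SE 0.06, adjusted p = 0.000245), and 5 subunits fell. COPS6 fell by 0.56 (SE 0.07, adjusted p = 0.00088) and COPS7A by 0.61 (SE 0.04, adjusted p = 4.41e-05). GPS1, COPS2 and COPS4 fell by 0.22, 0.30 and 0.28, with adjusted p of 0.0493, 0.035 and 0.0288. GPS1 shares 835 exonic bases with RFNG on the opposite strand, at 25.4 TPM in shARF and 46.4 in Both, whose part was not tested. COPS3, COPS5 and COPS7B did not pass, with log2 changes between -0.15 and 0.04. ELOC was at 67.6, 69.0 and 67.6 TPM in shARF and 108, 114 and 117 in Both, all higher (0.73, SE 0.04, adjusted p = 2.68e-05). DDB1 was at 111, 108 and 113 TPM in shARF and at 69.5, 65.5 and 61.4 in Both, all lower (-0.76, SE 0.05, adjusted p = 7.39e-05). SKP1 fell by 0.34 (SE 0.07, adjusted p = 0.00769). Without 1 library, 5 of the 22 calls had an adjusted p above 0.05: CAND1 without Both 2, Both 4 or any shARF library (adjusted p 0.0711 to 0.116), GPS1 without any of the 6 (0.0535 to 0.141), COPS2 without Both 2, Both 4 or any shARF library (0.0563 to 0.109), COPS4 without Both 4 or any shARF library (0.0641 to 0.0925) and ARIH2 without any Both library, shARF 1 or shARF 5 (0.0555 to 0.0857). With median-of-ratios scaling these 5 were also above 0.05, and the remaining 17 calls were kept in every alternative fitted. A fit with the library number as a block, which left 3 calls in MLN vs Ctrl, could not be run for this comparison.

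The drug comparisons in the lines share no library. A set of 5 genes were called higher in both lines, namely UBE2M, DCUN1D1, DCUN1D5, COPS8 and ELOC, where 22.0% of all genes were. A further 8 were called lower in both, namely CUL1, CUL4A, CUL4B, CAND1, GLMN, COPS6, COPS7A and DDB1, where 22.8% of all genes were. Opposite calls were made for ARIH2 (higher in PC3, lower in PC3-shp14ARF cells, 1.38% of all genes) and for DCUN1D3 (lower in PC3, higher in PC3-shp14ARF cells, 0.898%). UBA3, DCUN1D2, DCUN1D4, CUL2, CUL7, COPS3, COPS7B and ARIH1 were called in neither line.

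The stretches before the start sites of 5 genes are shown because 2 of them rose with MLN4924 in both lines (DCUN1D1 and DCUN1D5), 2 fell in both (COPS6 and CAND1) and CUL3 was called higher in PC3-shp14ARF cells only. They were taken from RefSeq (GRCh38.p14), where 36 of the 39 genes had an entry, from up to 250 bases before the start, and cut back on the gene's side by up to 35 bases so that they hold no exon annotated in GENCODE v44. Capitals mark matches on either strand to the ETS motif CCGGAAG, the CCAAT box, the GC box GGGCGG and the E-box CACGTG.
DCUN1D1: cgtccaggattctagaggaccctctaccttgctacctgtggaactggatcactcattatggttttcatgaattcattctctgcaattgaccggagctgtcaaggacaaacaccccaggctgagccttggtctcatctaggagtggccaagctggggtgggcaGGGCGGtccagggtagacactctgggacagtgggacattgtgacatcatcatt
DCUN1D5: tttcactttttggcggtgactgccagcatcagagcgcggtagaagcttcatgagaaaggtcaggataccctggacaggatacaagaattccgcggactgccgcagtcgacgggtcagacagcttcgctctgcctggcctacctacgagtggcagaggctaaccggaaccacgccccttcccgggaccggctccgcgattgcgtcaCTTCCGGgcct
COPS6: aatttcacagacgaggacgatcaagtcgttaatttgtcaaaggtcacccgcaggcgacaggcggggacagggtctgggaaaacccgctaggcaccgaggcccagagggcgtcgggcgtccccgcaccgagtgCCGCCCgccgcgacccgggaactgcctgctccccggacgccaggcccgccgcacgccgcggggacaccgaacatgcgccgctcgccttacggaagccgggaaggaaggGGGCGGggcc
CAND1: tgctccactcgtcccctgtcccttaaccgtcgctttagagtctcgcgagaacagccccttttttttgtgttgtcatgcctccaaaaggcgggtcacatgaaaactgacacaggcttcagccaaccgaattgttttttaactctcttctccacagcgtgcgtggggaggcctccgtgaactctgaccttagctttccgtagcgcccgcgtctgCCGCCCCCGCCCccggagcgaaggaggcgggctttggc
CUL3: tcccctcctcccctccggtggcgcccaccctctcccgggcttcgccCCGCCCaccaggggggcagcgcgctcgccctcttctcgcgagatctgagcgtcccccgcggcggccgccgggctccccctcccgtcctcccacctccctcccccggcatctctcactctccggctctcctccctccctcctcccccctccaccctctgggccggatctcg
The DCUN1D1 stretch is chr3:182985954-182986168 (minus strand, 215 bases), that of DCUN1D5 chr11:103092195-103092410 (minus, 216 bases), that of COPS6 chr7:100088719-100088968 (plus, 250 bases), that of CAND1 chr12:67269108-67269357 (plus, 250 bases) and that of CUL3 chr2:224585398-224585613 (minus, 216 bases). The GC box was found once in DCUN1D1 and CUL3 and at 2 places in COPS6 and CAND1. The ETS motif was found once in DCUN1D5. A link between the motifs and the direction of change was not tested. In the full 250 bases, the GC box was present in 23 of the 36 genes (42.3% of all 27305 promoters in the table), the CCAAT box in 11 (33.0%), the ETS motif in 8 (8.82%) and the E-box in 1, RBX1 (6.49%). The windows were searched as they stand, and many overlap a neighbouring gene's exons. A match is a description of the letters in the window and not of binding.

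The difference between the MLN4924 responses (the change in PC3-shp14ARF cells minus the change in PC3 cells, in a fit to all 12 libraries) passed for 8 of the 39 genes, 3 positive and 5 negative. Of all genes 28.3% passed, 11.2% positive and 17.1% negative beside 20.5% of the 39 genes, and of the genes whose mean reached 1 TPM, tested alone, 38.0% passed, with 3 members positive and 6 negative. DCUN1D3 and CAND2 were the only members beyond 1 on the log2 scale, where 8.47% of all genes were.

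DCUN1D3 (chr16:20854925-20900358, minus strand) was at 16.1, 15.4 and 14.6 TPM in Ctrl and 12.3, 11.4 and 11.1 in MLN, then 6.93, 7.01 and 7.47 in shARF and 11.6, 12 and 11 in Both. The MLN and Both libraries overlapped, while Ctrl lay above and shARF below them: with the drug the transcript fell in PC3 cells (log2 change -0.41) and rose in PC3-shp14ARF cells (0.69, SE 0.06, adjusted p = 0.000223). The difference between the responses was 1.09 (SE 0.10, 95% interval 0.87 to 1.31, adjusted p = 1.28e-05), and it stayed between 1.01 and 1.19 in the 19 alternatives. The gene shares 155 exonic bases with LYRM1 on the opposite strand, which was at 53.7, 55.2, 47.2 and 101 TPM in Ctrl, MLN, shARF and Both, and 146 with ERI2 on its own strand, at 6.23, 3.67, 9.48 and 4.38 TPM. Whether reads were counted by strand is not given in the sources used here, and the part of these neighbours in the value was not tested.

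CUL3 (chr2:224470150-224585397, minus strand), the scaffold of the BTB ligases such as the KEAP1 ligase for NRF2, was at 21.2, 19.7 and 22.4 TPM in Ctrl and 19.5, 20.4 and 21.3 in MLN, then 20.4, 21.9 and 21.5 in shARF and 30.8, 33.5 and 30.5 in Both. Only the Both libraries stood apart, above the other 9, which overlapped. The rise in PC3-shp14ARF cells was 0.57 on the log2 scale (SE 0.05, adjusted p = 0.000254), and the difference between the responses was 0.62 (SE 0.09, adjusted p = 0.000478). CUL9 (chr6:43182184-43224587, plus strand), a large atypical cullin, was at 10.2, 9.18 and 9.52 TPM in Ctrl and 6.54, 6.96 and 6.95 in MLN, then 7.68, 7.43 and 7.88 in shARF and 8.15, 7.45 and 8.09 in Both. Ctrl was above every other library, MLN below every other library, and shARF and Both overlapped. The difference between the responses was 0.53 (SE 0.11, adjusted p = 0.00299).

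CAND2 (chr3:12796472-12834804, plus strand) was at 2.80, 1.99 and 2.52 TPM in Ctrl and 2.05, 3.21 and 2.89 in MLN, then 4.45, 4.88 and 4.95 in shARF and 2.68, 2.30 and 2.37 in Both. The shARF libraries were above the other 9, which overlapped. MLN4924 lowered it in PC3-shp14ARF cells by 0.93 on the log2 scale (SE 0.10, adjusted p = 0.000503), and the difference between the responses was -1.07 (SE 0.24, adjusted p = 0.0064). CAND2 shares 320 exonic bases with RPL32, a ribosomal protein gene on the opposite strand, which was at 599 ± 41.6 TPM in Ctrl and 463 ± 39.1 in MLN, then 775 ± 39.7 in shARF and 496 ± 53.0 in Both. RPL32 was also highest in shARF, and its part in the CAND2 value was not tested.

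ELOB (chr16:2771414-2777289, minus strand) was at 219, 222 and 210 TPM in Ctrl and 335, 317 and 302 in MLN, then 319, 336 and 355 in shARF and 315, 268 and 351 in Both. Ctrl was below the other 9 libraries, which overlapped, and the difference between the responses was -0.67 (SE 0.12, adjusted p = 0.00173). ELOB shares 407 exonic bases with SRRM2 on the opposite strand, at 67.7, 83.5, 97.8 and 92.8 TPM in Ctrl, MLN, shARF and Both, which was likewise lowest in Ctrl, and its part was not tested. RBX1 (chr22:40951347-40973309, plus strand) was at 45.4, 46.4 and 43.8 TPM in Ctrl and 60.7, 70.7 and 58.8 in MLN, then 51.8, 55.4 and 50.9 in shARF and 56.3, 45.5 and 58.6 in Both. MLN was above all other libraries, and the Both libraries reached from within the Ctrl range to just under MLN (difference -0.47, SE 0.13, adjusted p = 0.0199). With median-of-ratios scaling the adjusted p for RBX1 was 0.0813, and it was between 0.0102 and 0.0813 over the alternatives.

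COPS2 (chr15:49106068-49155661, minus strand) was at 51.8, 55.0 and 52.7 TPM in Ctrl and 60.0, 56.3 and 56.7 in MLN, then 65.0, 64.5 and 59.7 in shARF and 50.0, 58.4 and 45.7 in Both. The shARF libraries lay above Ctrl, and Both overlapped with Ctrl and MLN (difference -0.42, SE 0.11, adjusted p = 0.0141). ARIH2 (chr3:48918821-48986382, plus strand) was at 41.2, 38.5 and 43.1 TPM in Ctrl and 45.4, 47.7 and 48.9 in MLN, then 51.4, 50.4 and 55.0 in shARF and 48.2, 47.6 and 45.2 in Both. Ctrl was lowest, shARF was highest, and MLN and Both overlapped between them (difference -0.36, SE 0.08, adjusted p = 0.00662). The direction of all 8 differences was the same in every alternative, and none of the 8 was lost when 1 library was left out.

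Without the drug, 19 of the 39 genes differed between PC3-shp14ARF and PC3 cells (shARF vs Ctrl), 15 higher and 4 lower in PC3-shp14ARF cells. All 19 calls were lost in the fit with the library number as a block, where 0 of all genes passed. Of all genes 41.4% were called, 21.0% higher and 20.4% lower beside 48.7% of the 39 genes, and of the genes whose mean reached 1 TPM, tested alone, 54.8% were called, with 17 members higher and 5 lower. The split of 15 against 4 was not tested against that of all genes. The median log2 change, with its sign, was 0.15 for the 39 genes and 0.00 for all genes. The median size of the log2 change was 0.21 for the 39 genes and 0.35 for all genes. DCUN1D3 was the only member beyond 1 on the log2 scale, where 10.5% of all genes were, with -1.10 (SE 0.06, adjusted p = 0.000193) from 15.4 ± 0.735 to 7.14 ± 0.290 TPM.

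NAE1 rose from 95.7 ± 5.95 to 124 ± 3.52 TPM (log2 change 0.38, SE 0.05, adjusted p = 0.00407), UBE2M from 264 ± 11.6 to 343 ± 30.1 (0.37, SE 0.07, adjusted p = 0.0132) and NEDD8 by 0.26 (SE 0.05, adjusted p = 0.011), while UBE2F fell by 0.23 (SE 0.05, adjusted p = 0.0152). DCUN1D5 rose by 0.38 (SE 0.05, adjusted p = 0.00423) and RBX1 by 0.22 (SE 0.04, adjusted p = 0.0121). DCUN1D1 and DCUN1D4 were higher by 0.16 and 0.23 (adjusted p = 0.0271 and 0.0459). No cullin rose and 2 fell. CUL7, an atypical cullin of the FBXW8 ligase, was at 38.8, 30.1 and 33.5 TPM in Ctrl and 24.3, 20.8 and 22.9 in shARF, all lower (-0.58, SE 0.11, adjusted p = 0.0113), and CUL9, its closest relative here, fell by 0.33 (SE 0.06, adjusted p = 0.00895). KLC4, which shares 486 exonic bases with CUL7 on the opposite strand, moved the same way, from 14.5 TPM in Ctrl to 8.78 in shARF and from 13.4 in MLN to 7.40 in Both, and its part was not tested. CUL1, CUL2, CUL3, CUL4A, CUL4B and CUL5 had log2 changes between -0.18 and 0.15 and did not pass.

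CAND2 rose by 0.95 (SE 0.15, adjusted p = 0.00539), beside the change of RPL32 given above, and CAND1 by 0.24 (SE 0.05, adjusted p = 0.0135). In the signalosome COPS5 rose by 0.30 (SE 0.07, adjusted p = 0.0199) and COPS2 by 0.24 (SE 0.04, adjusted p = 0.00948), and the other 7 did not pass. Of the adaptors, ELOB rose by 0.63 (SE 0.05, adjusted p = 0.00058), DDB1 by 0.28 (SE 0.06, adjusted p = 0.0139) and SKP1 by 0.39 (SE 0.07, adjusted p = 0.0116). SKP1 was at 61.5, 61.3 and 64.4 TPM in Ctrl and 82.8, 88.7 and 73.6 in shARF, without overlap. ELOC was at 61.9 ± 7.51 and 68.1 ± 0.770 TPM (0.14, interval -0.09 to 0.37). ARIH2 rose by 0.35 (SE 0.06, adjusted p = 0.00614). Without 1 library, 6 of the 19 calls had an adjusted p above 0.05: UBE2M without Ctrl 3 (adjusted p = 0.0502), UBE2F without shARF 3 (0.0545), DCUN1D1 without Ctrl 1, Ctrl 3 or any shARF library (0.0673 to 0.0895), DCUN1D4 without Ctrl 1, Ctrl 2, shARF 1 or shARF 3 (0.110 to 0.131), COPS5 without Ctrl 2 or any shARF library (0.0516 to 0.0702) and DDB1 without Ctrl 3, shARF 1 or shARF 5 (0.0513 to 0.0531).

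Under MLN4924 the lines differed in fewer of these genes (Both vs MLN, 9 of 39, 5 higher and 4 lower). Of all genes 32.4% were called, 11.8% higher and 20.6% lower, beside 23.1% of the 39 genes, and 43.7% of those whose mean reached 1 TPM, tested alone, with 5 members higher and 5 lower. A log2 change beyond 1 passed for 9.02% of all genes and for none of the 39. With median-of-ratios scaling 11 of the 39 were higher and 3 lower. Of all 19932 genes 3663 were then higher and 3466 lower, against 2352 and 4112 without it. The median of all genes moved from -0.08 to 0.00. CUL3 rose by 0.63 (SE 0.06, adjusted p = 0.00152), UBE2F fell by 0.47 (SE 0.07, adjusted p = 0.00599) and CUL7 by 0.46 (SE 0.06, adjusted p = 0.0041). These 3 calls were kept in every alternative fitted, which here could not include the block by library number. UBE2F was at 30.2, 29.2 and 29.2 TPM in MLN and 22.7, 22.1 and 19.4 in Both, without overlap. CUL7 was at 29.3, 33.3 and 31.8 TPM in MLN and 23, 22.1 and 23.4 in Both, again without overlap, beside the KLC4 values given above. CAND1 was higher by 0.41 (SE 0.08, adjusted p = 0.0146), and DCUN1D3, at 11.6 ± 0.611 and 11.5 ± 0.478 TPM, had a difference of -0.01 (interval -0.18 to 0.16).

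The other 5 calls of this comparison were weaker. DCUN1D4, CUL2 and SENP8 were higher by 0.38, 0.24 and 0.55 (adjusted p = 0.0474, 0.0457 and 0.0463), and RNF7 and COPS7B lower by 0.21 and 0.30 (adjusted p = 0.0373 and 0.0249). Without 1 library the adjusted p was above 0.05 for CAND1 without MLN 5 (0.0524), DCUN1D4, COPS7B and SENP8 without any Both library, MLN 2 or MLN 5 (0.0722 to 0.144, 0.0564 to 0.0840 and 0.0881 to 0.139), RNF7 without any Both library, MLN 1 or MLN 2 (0.0715 to 0.111) and CUL2 without any of the 6 (0.0568 to 0.107). The count of higher genes was 2 without any of the Both libraries, MLN 2 or MLN 5, and that of lower genes was 2 without Both 2, Both 4 or MLN 2. The comparisons MLN vs Ctrl and shARF vs Ctrl share the Ctrl libraries, and Both vs shARF and Both vs MLN share the Both libraries. UBA3, DCUN1D2, COPS3 and ARIH1 were called in none of the comparisons.

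**Figure D1:**
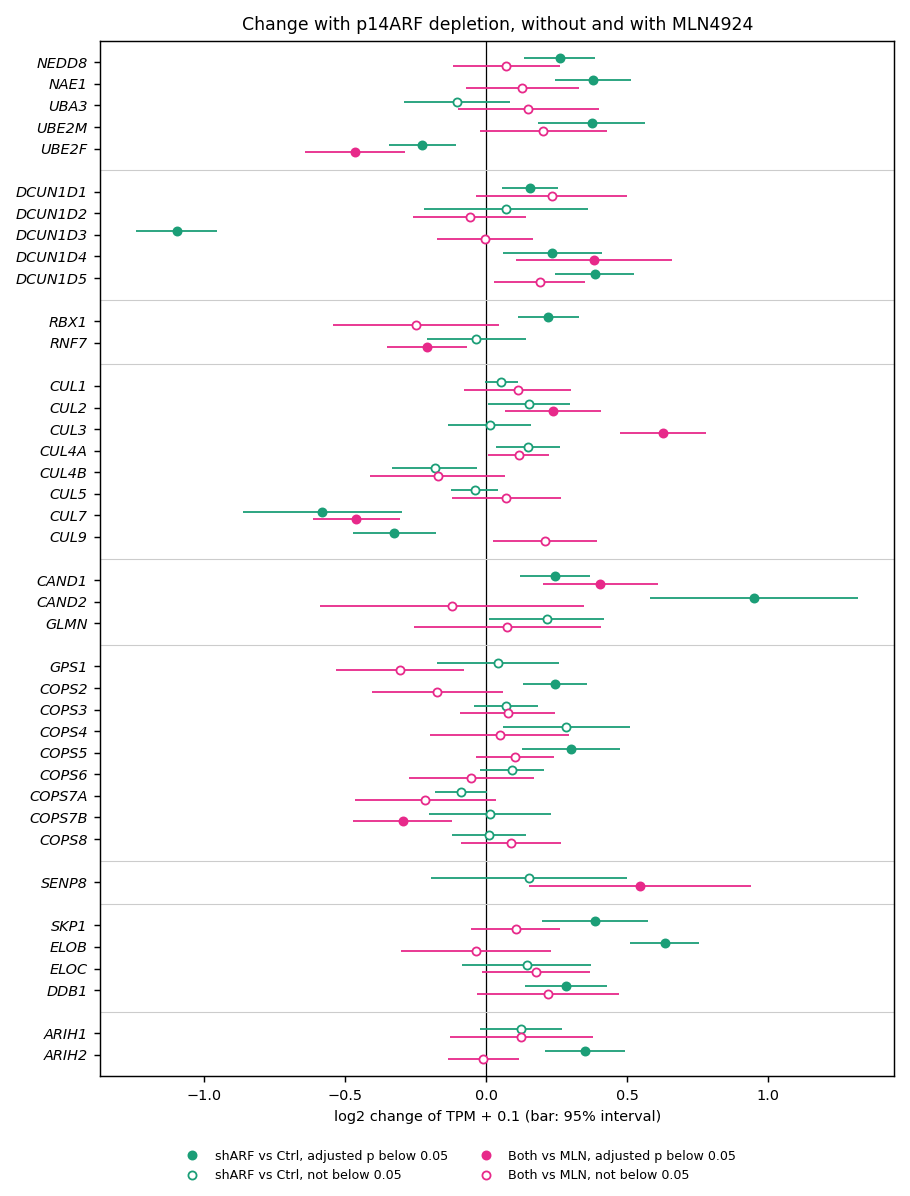
Log2 change of TPM + 0.1 in PC3-shp14ARF against PC3 cells for each of the 39 genes, with DMSO (shARF vs Ctrl) and with MLN4924 (Both vs MLN). Bars are 95% intervals, and points are filled where the adjusted p was below 0.05. DCUN1D3 lies at -1.10 without the drug and at -0.01 with it, CUL3 at 0.01 and 0.63, and CUL7 at -0.58 and -0.46.

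Ratios between partner genes were computed within each library and are given without a test. The UBE2M to UBE2F ratio was 8.43 ± 0.676 in Ctrl and 13.7 ± 1.51 in MLN, against 12.8 ± 0.940 in shARF and 21.8 ± 2.70 in Both, and Both did not overlap with any other condition. NAE1 stood at 2.16 ± 0.0566 times UBA3 in Ctrl and at 3.01 ± 0.145, 3.03 ± 0.195 and 2.97 ± 0.170 in MLN, shARF and Both, so that Ctrl alone was apart. The COPS8 to COPS6 ratio was 0.262 ± 0.0126 in Ctrl and 0.248 ± 0.0268 in shARF, against 0.503 ± 0.00489 in MLN and 0.555 ± 0.0282 in Both. The COPS7A to COPS7B ratio was 3.10 ± 0.174 and 2.89 ± 0.154 without the drug (Ctrl and shARF) and 1.94 ± 0.114 and 2.05 ± 0.113 with it (MLN and Both). For both signalosome ratios the treated and untreated libraries did not overlap in either line. COPS8 rose and COPS6 fell in both lines, so their ratio restates those changes. The ELOB to ELOC ratio was 3.53 ± 0.408 in Ctrl and 3.19 ± 0.234 in MLN, against 4.94 ± 0.272 in shARF and 2.76 ± 0.361 in Both. For RBX1 to RNF7 and CUL4A to CUL4B the treated and untreated libraries overlapped in both lines. For ARIH2 to ARIH1 they overlapped in PC3-shp14ARF cells only. The CAND1 to CAND2 ratio overlapped in neither line, but moved in opposite directions: 13.5 in Ctrl and 9.31 in MLN, against 8.08 in shARF and 13.4 in Both.

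The summed level of the 8 cullins was 390 ± 11.2 TPM in Ctrl and 327 ± 8.78 in MLN, then 392 ± 5.20 in shARF and 357 ± 23.6 in Both. CUL2 held 31.9% ± 1.59 of that sum in Ctrl and 38.4% ± 0.489 in MLN, and 35.3% ± 1.28 in shARF and 41.5% ± 0.776 in Both. CUL1 went from 22.8% ± 0.503 to 18.4% ± 0.984 and from 23.6% ± 0.176 to 18.2% ± 0.302 in the same pairs. CUL3 held 5.40% ± 0.191, 6.25% ± 0.139 and 5.42% ± 0.261 in Ctrl, MLN and shARF and 8.86% ± 0.129 in Both. In the signalosome, whose summed level was 706 ± 12.8, 660 ± 40.5, 746 ± 9.01 and 629 ± 23.8 TPM in Ctrl, MLN, shARF and Both, COPS6 held 31.9% and 32.2% in Ctrl and shARF and 25.6% and 25.9% in MLN and Both. COPS8 held 8.34% and 7.95% without the drug and 12.9% and 14.4% with it.

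A second list of 18 genes of the same pathway, ubiquitin enzymes that serve cullin-RING ligases (9) and other signalosome, cullin-fold and NEDD8-handling genes (9), was counted beside the 39. In MLN vs Ctrl, 8 of the 18 were higher and 5 lower, beside 32.2% and 29.4% of all genes. In Both vs shARF 5 were higher and 4 lower, beside 28.3% and 32.8%. In shARF vs Ctrl 1 was higher and 4 lower, beside 21.0% and 20.4%. In Both vs MLN 1 was higher and 1 lower, beside 11.8% and 20.6%. The MLN4924 response differed between the lines for 4 of the 18, 2 positive and 2 negative, beside 11.2% and 17.1% of all genes. Only UBE2D1 and DDA1 passed beyond 1 on the log2 scale. Of all genes, 28.0% did so in MLN vs Ctrl and 26.4% in Both vs shARF. UBE2D1, an E2 that starts ubiquitin chains, was at 36.3 ± 1.89 TPM in Ctrl and 79.6 ± 1.22 in MLN (log2 change 1.13, SE 0.05, adjusted p = 1.6e-05), and at 32.8 ± 0.415 in shARF and 73.1 ± 6.81 in Both (1.15, SE 0.07, adjusted p = 4.47e-05). DDA1, a small partner of DDB1, was at 97.9, 91.1 and 79.7 TPM in Ctrl and at 208, 218 and 247 in MLN, all higher (1.33, SE 0.10, adjusted p = 9.54e-05), while DDB1 itself fell. In PC3-shp14ARF cells DDA1 rose by 0.97 (SE 0.04, adjusted p = 1.42e-05).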

How the data were processed

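RNA from 12 libraries of 4 conditions was sequenced. Per the labels and the study's methods, the authors used CLC Genomics Workbench to trim reads, align them to hg38 and quantify Ensembl GRCh38 genes, and deposited TPM values per library for 43622 genes, without a filter. Library strandedness and depth are not given in the sources used here. TPM is not a count, so log2(TPM + 0.1) was tested for the 19932 genes averaging 0.1 TPM or more over the 12 libraries, with limma 3.58.1 (lmFit, eBayes with trend) in R 4.3.3, and p-values were adjusted over all of them (Benjamini-Hochberg, called below 0.05, two-sided). Each comparison was fitted to its 6 libraries, and the interaction to all 12. The fits were run on simulated data with log2 changes of 1 or more, which does not cover the smaller changes reported for most of the 39 genes. Positions are from GENCODE v44 (GRCh38). All 39 genes are named by role; values per library are given for those beyond a log2 change of 0.8 or with a called interaction, and for others chosen after their values were seen. The members and lists were chosen with earlier results of these data known. Alternatives were other pseudocounts, filters, scaling, eBayes without trend, a joint fit, a replicate block and leaving out each library.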

Additional observations from a re-analysis of the deposited data

Results flagged for a closer look

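The MLN4924 response differed between PC3 and PC3-shp14ARF cells, by the test of the difference itself, for 8 of the 39 genes. The difference (response in PC3-shp14ARF minus response in PC3, log2) was positive for DCUN1D3 (1.09), CUL3 (0.62) and CUL9 (0.53). It was negative for CAND2 (-1.07), ELOB (-0.67), RBX1 (-0.47), COPS2 (-0.42) and ARIH2 (-0.36). DCUN1D3 and ARIH2 were called in opposite directions in the 2 lines. CUL3 was called only in PC3-shp14ARF cells, as were CAND2 and COPS2, and CUL9, ELOB and RBX1 only in PC3 cells. CAND2, ELOB, DCUN1D3, COPS2 and ARIH2 share 320, 407, 155, 6 and 3 exonic bases with a gene on the opposite strand, and DCUN1D3 also 146 with ERI2 on its own strand. The part of these genes was not tested.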

How the results depend on the processing

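No log2 change of a called gene reversed under any alternative. Of the calls of the 39 genes, 3 of 24 in MLN vs Ctrl, 17 of 22 in Both vs shARF, 0 of 19 in shARF vs Ctrl, 3 of 9 in Both vs MLN and 4 of 8 interaction terms were kept in all alternatives fitted. The replicate block ended 43 of the 51 calls it could be run on, and it leaves 4 libraries in a pairwise fit. In MLN vs Ctrl 0 of the 39 genes were then higher and 3 lower. Of all 19932 genes 3046 were higher and 2656 lower in that fit. In shARF vs Ctrl the counts were 0 and 0, for the 39 genes and for all genes alike. By limma, 17 and 20 of the 39 genes had an unadjusted p under 0.05 in these comparisons. The lowest adjusted p of the 39 in shARF vs Ctrl was 0.0600. Under the block 3 interaction terms of the 39 were negative (ELOB, RBX1 and SKP1, the last not called without the block). Of all genes 1493 terms were positive and 1612 negative. The CAND2, COPS2 and ARIH2 terms were lost under the block, with an adjusted p of 0.0992, 0.0638 and 0.118. What the numbers in the column names stand for is not described. Deviations of same-numbered libraries from their condition means correlated at -0.147 to 0.0584. With so few shared numbers per comparison, this cannot decide whether the numbers pair the samples. For Both vs shARF and Both vs MLN no paired analysis was possible because the groups share 1 number. Median-of-ratios scaling gave 13 higher genes among the 39 in Both vs shARF and 11 in Both vs MLN. It divides each library by a size factor, which was 0.936 to 0.983 in Both. The factors were 1.006 to 1.047 in shARF and 1.005 to 1.034 in MLN. Their part in the counts was not tested. In Both vs MLN, eBayes without trend gave 3 higher and 2 lower, and no filter and a pseudocount of 0.01 each gave 3 higher. Leaving out 1 library gave 9 to 11 higher and 10 to 13 lower in MLN vs Ctrl, 7 to 8 and 10 to 15 in Both vs shARF, 11 to 15 and 3 to 4 in shARF vs Ctrl, 2 to 5 and 2 to 5 in Both vs MLN, and 3 and 5 to 7 interaction terms. TPM values carry no depth, so the counting error of low genes such as CAND2 and SENP8 is unknown.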
